A study of Mus musculus with 24 samples.

Results

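A set of 39 genes of the actin cytoskeleton, named as targets of serum response factor (SRF), was read from a table of estimated RNA counts for 20351 protein-coding genes. The set was chosen by gene symbol and holds 4 actin isoforms, 4 proteins of actin monomer and filament turnover, 15 cross-linkers, adhesion and stress fibre proteins, 10 proteins that bind along the filament, 5 genes for myosin II chains and their kinase, and vimentin. Every symbol was found, and 38 of the 39 passed the filter on low counts, as did 14411 genes in all. The exception was Actg2, the enteric smooth muscle actin, with 1 to 10 counts per library.

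SRF is a transcription factor that binds a short DNA element called the CArG box. Its partners of the MRTF family are held in the cytoplasm by actin monomers, and when actin polymerises they are freed to enter the nucleus and drive genes for actin itself and for the proteins that bundle, anchor and contract it. In heart muscle SRF is also required for sarcomere genes, and MuRF1, the product of Trim63, is a ubiquitin ligase of the sarcomere. SRF binding and actin polymerisation were not measured here.

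The RNA came from HL-1, an established line of mouse atrial cardiomyocytes. The libraries formed 4 groups of 6: knockdown cells, carrying adenovirus with a short hairpin against MuRF1, were either stretched or left non-stretched, and control cells, carrying a scrambled hairpin, were likewise stretched or left non-stretched. All groups received virus at 30 MOI, and 48 h later the stretched ones were stretched by 15% at 1 Hz for 60 min and harvested at once. The growth protocol ends with a change to serum-free medium. The geometry of the stretch is unclear, being uniaxial in the protocol and biaxial in the treatment label. Nothing states that the replicates were separate cultures, so that the p-values cover the spread of these samples alone, possibly technical.

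Depth ran between 23.6 and 54.8 M estimated counts per library, with replicate 5 of the stretched control cells the shallowest and the others at 37.7 M or more. That library stood apart, at 54.7 on the second principal component (10.2% of the variance) against -14.9 to 13.2 in the other 23. Counts of called members without it are given below for the comparisons that use it. In the library codes, each group has a middle number of its own, and if this marks a batch, batch and group cannot be told apart. Trim63 stood at 60.0 to 83.5 CPM (median 67.1) in stretched knockdown cells, against 687 to 882 CPM (median 783) in stretched control cells. Without stretch it stood at 54.2 to 57.4 CPM (median 55.7) in knockdown cells, against 536 to 707 CPM (median 641) in control cells. Levels are library-size-scaled counts after TMM normalisation, per M counts (CPM). Of 11 atrial cardiomyocyte markers, 9 had medians above 1 CPM in every group, while Nppa and Sln, both defining for atrial cells, were under 1 CPM.

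The 6 members below carried an exact CArG box in the 300-base RefSeq promoter window (250 bases before to 50 after a listed transcript start, GRCm38.p6), searched on both strands of an element that is its own reverse complement. They are shown because the box is the sequence that SRF binds, and the capitals mark it.
Actg1: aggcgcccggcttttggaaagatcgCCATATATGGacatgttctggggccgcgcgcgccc
Cnn2: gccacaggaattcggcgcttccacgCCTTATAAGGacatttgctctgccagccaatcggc
Filip1l: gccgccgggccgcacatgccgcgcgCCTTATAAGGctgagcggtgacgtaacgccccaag
Lima1: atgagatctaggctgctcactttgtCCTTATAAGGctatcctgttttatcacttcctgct
Myl9: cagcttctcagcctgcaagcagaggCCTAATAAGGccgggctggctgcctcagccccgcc
Vcl: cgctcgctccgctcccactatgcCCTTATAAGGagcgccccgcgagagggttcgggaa
The Actg1 stretch is chr11:120348551-120348610 on the minus strand, with the box 90 to 81 bases before the start. For Cnn2 it is chr10:79988519-79988578 on the plus strand, 56 to 47 bases before. For Filip1l it is chr16:57549155-57549214 on the plus strand, 62 to 53 bases before. For Lima1 it is chr15:99820162-99820221 on the minus strand, 47 to 38 bases before. For Myl9 it is chr2:156775278-156775337 on the plus strand, 161 to 152 bases before. For Vcl it is chr14:20929148-20929205 on the plus strand, 227 to 218 bases before. The starts used for Lima1 and Filip1l lie 55.3 and 196 kilobases inside their GENCODE genes, and for Filip1l the box was in 1 of its 2 entries. Cnn2, Filip1l, Lima1 and Vcl share the same 10 bases, while the boxes of Actg1 and Myl9 each have their own. Of the 33 members with a promoter entry, 18.2% held a box, beside 1.66% of 14240 genes of the count table and 1.63% of all 32851 promoters. The absence of a match in the other 27 says only that these letters are not in this window. Actb, Actg2, Csrp2, Myh11, Tagln and Tgfb1i1 had no entry.

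Actin isoforms led the levels. Per kilobase of the longest protein-coding transcript, in non-stretched control cells, Actg1 had 1352 ± 52.9 CPM, Acta2 1120.5 ± 35.2 and Actb 1022 ± 28.4 (SD, n = 6 each). Actg1 and Actb encode the cytoplasmic gamma and beta actins, and Acta2 the smooth muscle alpha actin. These 3 stood apart from each other beyond 1 SD. Vim followed at 601 ± 6.70 CPM per kilobase, then Pfn1 at 514 ± 11.1 and Cfl1 at 394 ± 8.98. Dstn, Myl9, Csrp1 and Tpm4, at 352 ± 23.3, 349 ± 11.2, 343 ± 9.73 and 334 ± 10.4, could not be ordered, since each neighbour lay within the spread of the next. At the low end, Lmod1 had 0.890 ± 0.0963 CPM per kilobase, and Myh11, Filip1l and Actg2 had 0.110 ± 0.0182, 0.0797 ± 0.0156 and 0.0653 ± 0.0426, also within each other's spread. Share of sequence limits some of these levels: 46.0% of the 31-base words of Tpm3, 25.7% of those of Actb and 5.07% of those of Actg1 also occur in another protein-coding gene, so their split is uncertain. Of the members, 27 share under 1%.

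**Figure D1:**
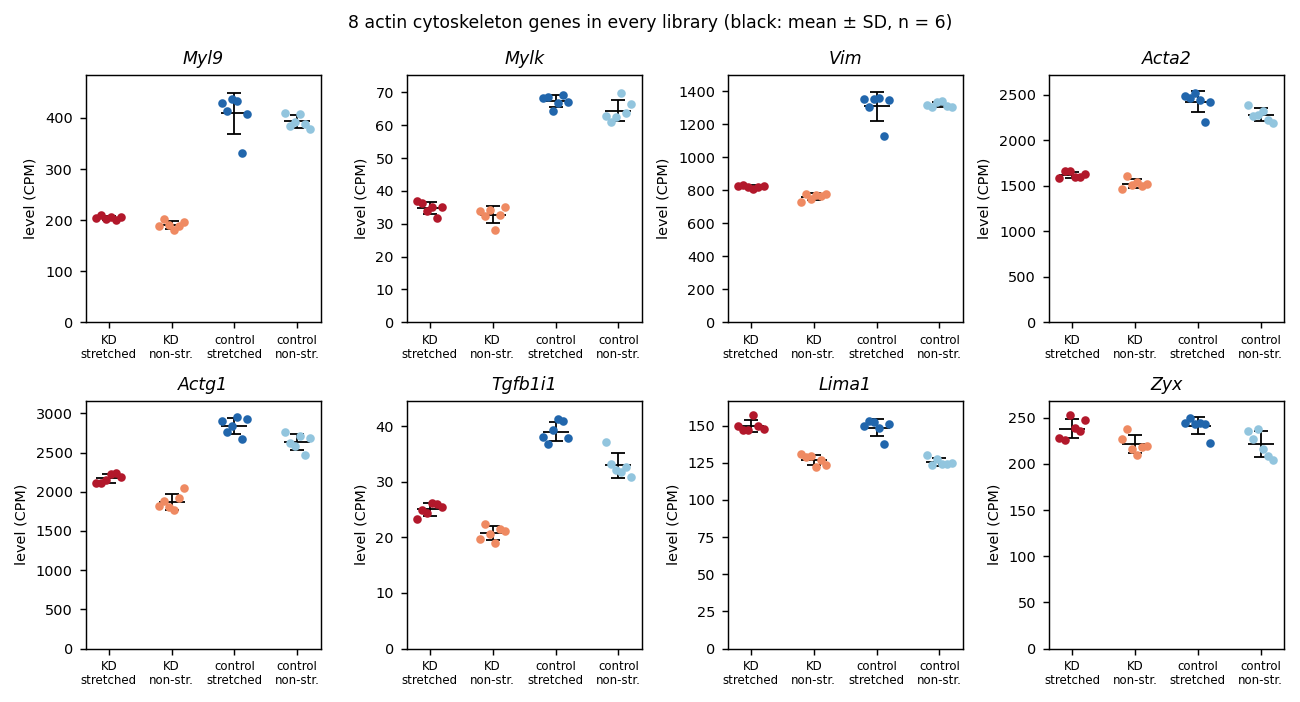
Levels of 8 members in CPM (y axes, each from 0) in every library, by group from left to right: stretched knockdown, non-stretched knockdown, stretched control and non-stretched control cells (x axes). Points are libraries and black bars are the mean ± SD (n = 6). Myl9, Mylk, Vim, Acta2, Actg1 and Tgfb1i1 have all knockdown libraries below all control libraries of the same stretch state, and Lima1 lies higher in every stretched library than in any non-stretched library.

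Most of the set was lower in MuRF1 knockdown cells. In stretched cells 29 of 38 members fell and 3 rose in knockdown against control cells, and in non-stretched cells again 29 fell and 3 rose (edgeR quasi-likelihood test, Benjamini-Hochberg adjusted p under 0.05 over all 14411 genes). The 29 are 76.3% of the members, where 26.9% of all tested genes fell and 25.1% rose with stretch, and 29.7% fell and 28% rose without it. Members' median log2 fold changes were -0.32 with stretch and -0.36 without, beside 0.00 and 0.01 for all tested genes. Members are abundant, and among the 8035 genes averaging at least 20 CPM, 34.5% fell and 24.3% rose with stretch, and 38.7% fell and 26% rose without, beside 28 of 34 members that fell and 2 that rose in each. The comparisons share no library: 31 of the 32 genes called in each, 96.9% of either list, were called in both, all in the same direction. Calls in either direction took in 52% of all tested genes with stretch and 57.8% without. The share of all tested genes called in both is not given here. Changes by knockdown are given below as log2 fold changes of knockdown over control cells, with the SE and adjusted p of edgeR, first in stretched and then in non-stretched cells.

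Every knockdown library lay below every control library for 24 members with stretch and 27 without, where this held for 17.3% and 21.5% of all tested genes. The reverse held for 1 member with stretch, Myh10, and 0 without, beside 14.7% and 16.3% of all tested genes. With stretched control replicate 5 left out, 27 members lay wholly below with stretch, beside 24.5% of all tested genes. Then 2 lay wholly above, Myh9 and Myh10, beside 18.5%. Together the 39 genes summed to 17157 to 17572 CPM in stretched knockdown cells, against 20834 to 22763 CPM in stretched control cells. In non-stretched cells they summed to 16029 to 16674 CPM with the knockdown, against 21061 to 21767 CPM in control cells. These sums are of TMM-scaled levels and are not shares of a library's counts. The TMM factor was 1.039 in stretched knockdown replicate 1 and 0.948 in stretched control replicate 1, for example. In bulk RNA, fewer cells of a type and less RNA per cell cannot be told apart.

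All 3 tested actin isoforms fell in both comparisons. Acta2, the smooth muscle alpha actin of stress fibres, stood at 1582 to 1667 CPM (median 1613) in stretched knockdown cells, against 2200.3 to 2519 CPM (median 2459.7) in stretched control cells. Without stretch, Acta2 stood at 1463 to 1604 CPM (median 1516) in knockdown cells, against 2193 to 2393 CPM (median 2276) in control cells. Knockdown changed Acta2 by -0.58 (SE 0.0310, adjusted p = 5.1e-15) with stretch and by -0.58 (SE 0.0310, adjusted p = 3.45e-15) without it. Acta2 was thus 33.2% lower with stretch and 33.2% lower without, with no overlap of groups. Actb, the cytoplasmic beta actin, stood at 1491 to 1617 CPM (median 1544) in stretched knockdown cells, against 1927 to 2111 CPM (median 2020.3) in stretched control cells. Without stretch, Actb stood at 1334 to 1498 CPM (median 1401) in knockdown cells, against 1910.1 to 2059.5 CPM (median 1942) in control cells. Knockdown changed Actb by -0.38 (SE 0.0308, adjusted p = 3.07e-11) with stretch and by -0.48 (SE 0.0308, adjusted p = 2.35e-13) without it. No knockdown library reached the lowest control library. Actg1, the cytoplasmic gamma actin, stood at 2112 to 2242 CPM (median 2167) in stretched knockdown cells, against 2679 to 2951 CPM (median 2866) in stretched control cells. Without stretch, Actg1 stood at 1763 to 2049 CPM (median 1854) in knockdown cells, against 2473 to 2757 CPM (median 2652) in control cells. Knockdown changed Actg1 by -0.39 (SE 0.0345, adjusted p = 2.32e-10) with stretch and by -0.49 (SE 0.0345, adjusted p = 1.22e-12) without it. Its groups did not overlap either, and both cytoplasmic isoforms changed less than Acta2 in each comparison.

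Positions follow GENCODE vM21 on GRCm38. Acta2 (ENSMUSG00000035783) lies on chromosome 19 at 34241090 to 34255590, minus strand. Myl9, described below, lies on chromosome 2 at 156775420 to 156781658, plus strand, Mylk on chromosome 16 at 34745210 to 35002420, plus strand and Vim on chromosome 2 at 13573927 to 13582826, plus strand. The adhesion genes Tgfb1i1 and Lima1 lie on chromosome 7 at 128246812 to 128255699, plus strand, and on chromosome 15 at 99778470 to 99875456, minus strand. The 39 members are spread over 18 chromosomes.

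The 4 genes of actin turnover fell in both comparisons too. Wdr1, which speeds cofilin-driven disassembly of filaments, stood at 344 to 358 CPM (median 352) in stretched knockdown cells, against 437 to 498 CPM (median 479) in stretched control cells. Without stretch, Wdr1 stood at 308 to 318 CPM (median 314) in knockdown cells, against 429 to 439 CPM (median 433) in control cells. Knockdown changed Wdr1 by -0.44 (SE 0.0254, adjusted p = 2.61e-14) with stretch and by -0.47 (SE 0.0255, adjusted p = 5.24e-15) without it. The knockdown and control groups were apart in both stretch states. Dstn, the actin-depolymerising factor destrin, stood at 502 to 539 CPM (median 530.5) in stretched knockdown cells, against 563 to 773 CPM (median 759) in stretched control cells. Without stretch, Dstn stood at 479 to 579.8 CPM (median 483) in knockdown cells, against 623 to 733 CPM (median 666) in control cells. Knockdown changed Dstn by -0.47 (SE 0.0608, adjusted p = 3.43e-07) with stretch and by -0.43 (SE 0.0608, adjusted p = 1.03e-06) without it. Again no ranges overlapped, although the stretched control range is wide at its low end. Pfn1, the monomer-binding profilin, changed by -0.29 (adjusted p = 8.25e-09) with stretch and -0.30 (adjusted p = 3.41e-09) without. Cfl1, the non-muscle cofilin, had the smallest folds of the 4, -0.14 (adjusted p = 0.0168) and -0.17 (adjusted p = 0.00290). Its groups overlapped in stretched cells and were apart in non-stretched cells. Without stretched control replicate 5, Cfl1 was apart with stretch, at 840 to 883 CPM in knockdown against 955 to 1015 CPM in control cells.

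Of the 15 cross-linkers, adhesion and stress fibre proteins, 11 fell in each comparison. Fblim1, a filamin-binding adaptor that links adhesions to actin, stood at 68.8 to 72.4 CPM (median 71.6) in stretched knockdown cells, against 104 to 118 CPM (median 112) in stretched control cells. Without stretch, Fblim1 stood at 60.8 to 71.0 CPM (median 64.2) in knockdown cells, against 106 to 114 CPM (median 111) in control cells. Knockdown changed Fblim1 by -0.65 (SE 0.0341, adjusted p = 3.58e-15) with stretch and by -0.77 (SE 0.0342, adjusted p = 6.7e-17) without it. Among the 15 it had the largest fall in both comparisons, and its groups were apart. Tgfb1i1, the adhesion protein Hic-5, stood at 23.2 to 26.2 CPM (median 25.1) in stretched knockdown cells, against 36.8 to 41.3 CPM (median 38.7) in stretched control cells. Without stretch, Tgfb1i1 stood at 19.0 to 22.4 CPM (median 20.9) in knockdown cells, against 30.9 to 37.1 CPM (median 32.4) in control cells. Knockdown changed Tgfb1i1 by -0.64 (SE 0.0452, adjusted p = 1.9e-12) with stretch and by -0.67 (SE 0.0458, adjusted p = 8.62e-13) without it. Every knockdown library was below every control library in the same stretch state. Vasp, which promotes filament elongation at adhesions, stood at 138 to 145 CPM (median 140.0) in stretched knockdown cells, against 193 to 216 CPM (median 205) in stretched control cells. Without stretch, Vasp stood at 133 to 143 CPM (median 135) in knockdown cells, against 197 to 219.7 CPM (median 203) in control cells. Knockdown changed Vasp by -0.53 (SE 0.0303, adjusted p = 1.81e-14) with stretch and by -0.58 (SE 0.0303, adjusted p = 1.93e-15) without it. Its groups were apart as well. Actn1, an alpha-actinin that cross-links stress fibres, stood at 298 to 317 CPM (median 305) in stretched knockdown cells, against 404 to 423 CPM (median 416) in stretched control cells. Without stretch, Actn1 stood at 272 to 302 CPM (median 297) in knockdown cells, against 423 to 436 CPM (median 424) in control cells. Knockdown changed Actn1 by -0.44 (SE 0.0251, adjusted p = 2.24e-14) with stretch and by -0.55 (SE 0.0252, adjusted p = 1.48e-16) without it. The groups of Actn1 did not overlap.

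The other members of this role that fell changed less. With stretch they ran between -0.37 for Flna, the cross-linker filamin A, and -0.09 for Actn4, the second non-muscle alpha-actinin. Flna changed by -0.37 (adjusted p = 1.09e-11) with stretch and -0.41 (adjusted p = 1.06e-12) without, and Vcl, the adhesion protein vinculin, by -0.33 (adjusted p = 2.14e-10) and -0.36 (adjusted p = 1.97e-11). Enah, a relative of Vasp, changed by -0.37 and -0.41. Csrp2 and Csrp1, LIM proteins that bind alpha-actinin, changed by -0.37 and -0.22 with stretch and by -0.46 and -0.20 without. Tln1, which activates integrins, changed by -0.13 (adjusted p = 0.0213) and -0.18 (adjusted p = 0.00202). Without stretched control replicate 5, Tln1 gave -0.08 (adjusted p = 0.0608) with stretch, short of a call. Actn4 lost its call without stretch when genes were not filtered (adjusted p = 0.117) or non-stretched knockdown replicate 4 was left out (adjusted p = 0.0712).

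Not all adhesion genes moved this way. Pdlim7, an adaptor of the PDZ and LIM kind, rose by 0.12 (SE 0.0481, adjusted p = 0.0362) with stretch and by 0.19 (SE 0.0482, adjusted p = 0.00121) without, and its groups overlapped in both. With stretch it lost its call on leaving out any 1 of 5 libraries (adjusted p of 0.0551 to 0.0980). Filip1l rose without stretch by 1.00 (adjusted p = 0.00480), at 0.416 to 1.22 CPM (median 0.657) in knockdown cells, against 0.273 to 0.444 CPM (median 0.355) in control cells, with overlapping groups at 12 to 52 counts per library. With stretch its value was 0.20 (adjusted p = 0.561). Zyx, which repairs strained stress fibres, passed in neither comparison, with -0.02 (adjusted p = 0.738) with stretch and -0.000795 (adjusted p = 0.988) without. Lima1, the actin bundler EPLIN, gave 0.01 (adjusted p = 0.812) and 0.02 (adjusted p = 0.657).

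Among 10 proteins that bind along the filament, 8 fell in each comparison. Cnn2, a calponin found in many non-muscle cells, stood at 171 to 182 CPM (median 179.5) in stretched knockdown cells, against 258 to 284 CPM (median 277) in stretched control cells. Without stretch, Cnn2 stood at 157 to 167 CPM (median 159) in knockdown cells, against 254 to 270.1 CPM (median 258) in control cells. Knockdown changed Cnn2 by -0.62 (SE 0.0258, adjusted p = 2.51e-17) with stretch and by -0.70 (SE 0.0258, adjusted p = 1.59e-18) without it. Its groups were apart in both stretch states. Cald1, caldesmon, which restrains actin-activated myosin, stood at 359 to 419.7 CPM (median 391) in stretched knockdown cells, against 523 to 634 CPM (median 592) in stretched control cells. Without stretch, Cald1 stood at 336 to 399 CPM (median 379) in knockdown cells, against 548 to 606 CPM (median 567) in control cells. Knockdown changed Cald1 by -0.58 (SE 0.0471, adjusted p = 3.93e-11) with stretch and by -0.61 (SE 0.0471, adjusted p = 9.99e-12) without it. No ranges overlapped. Lmod1, a leiomodin that nucleates filaments in smooth muscle, changed by -0.36 (adjusted p = 0.000957) with stretch and -0.41 (adjusted p = 0.000358) without, and its groups overlapped in the second. Smtn, Tagln2 and Tagln encode smoothelin and both transgelins, and Tpm4 and Tpm3 encode tropomyosins. In that order, they changed by -0.24, -0.30, -0.31, -0.22 and -0.20 with stretch, and by -0.36, -0.35, -0.28, -0.17 and -0.25 without. The other calponins were not called: Cnn1 gave 0.00 (adjusted p = 0.968) and 0.07 (adjusted p = 0.393), and Cnn3 0.06 (adjusted p = 0.240) and 0.07 (adjusted p = 0.153).

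Of the 5 genes for myosin II chains and their kinase, Myl9 and Mylk fell in each comparison. Myl9, a regulatory light chain of non-muscle and smooth muscle myosin, stood at 199.8 to 209.9 CPM (median 204) in stretched knockdown cells, against 331 to 438 CPM (median 421) in stretched control cells. Without stretch, Myl9 stood at 179.7 to 202 CPM (median 189.8) in knockdown cells, against 378 to 409 CPM (median 389.9) in control cells. Knockdown changed Myl9 by -1.001 (SE 0.0456, adjusted p = 1.96e-16) with stretch and by -1.04 (SE 0.0456, adjusted p = 5.01e-17) without it. This was the largest fall of the set in both comparisons, 50.0% with stretch and 51.5% without, and the groups were far apart. Mylk, the kinase that phosphorylates that light chain, stood at 31.7 to 36.9 CPM (median 35.1) in stretched knockdown cells, against 64.5 to 69.2 CPM (median 67.6) in stretched control cells. Without stretch, Mylk stood at 27.9 to 35.1 CPM (median 33.4) in knockdown cells, against 61.0 to 69.7 CPM (median 63.4) in control cells. Knockdown changed Mylk by -0.95 (SE 0.0443, adjusted p = 3.19e-16) with stretch and by -0.98 (SE 0.0444, adjusted p = 1.1e-16) without it. Its ranges did not overlap in either stretch state. No heavy chain gene was called lower. Myh10, non-muscle heavy chain IIB, rose by 0.21 (SE 0.0304, adjusted p = 1.56e-06) with stretch and 0.13 (SE 0.0304, adjusted p = 0.000793) without. Its stretched knockdown libraries, at 269 to 289 CPM (median 276), were all above the stretched control libraries, at 234 to 247 CPM (median 240.2). Myh11, the smooth muscle heavy chain, rose with stretch by 0.59 (adjusted p = 0.0109), at 0.649 to 1.10 CPM (median 0.878) in knockdown cells and 0.292 to 0.817 CPM (median 0.604) in control cells, and without stretch gave 0.24 (adjusted p = 0.273). Myh9, non-muscle heavy chain IIA, passed in neither, with 0.06 (adjusted p = 0.244) and 0.03 (adjusted p = 0.615). It was called higher with stretch when stretched control replicate 5 was left out. Leaving out non-stretched knockdown replicate 4 made it called higher without stretch.

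Vim, the intermediate filament protein vimentin, typical of mesenchymal cells, stood at 808 to 833 CPM (median 821) in stretched knockdown cells, against 1130.5 to 1357 CPM (median 1348) in stretched control cells. Without stretch, Vim stood at 729.7 to 779 CPM (median 768) in knockdown cells, against 1304 to 1338 CPM (median 1313) in control cells. Knockdown changed Vim by -0.67 (SE 0.0330, adjusted p = 9.53e-16) with stretch and by -0.79 (SE 0.0330, adjusted p = 1.92e-17) without it. Vimentin was 37.2% lower with stretch and 42.2% lower without, with the groups apart.

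**Figure D2:**
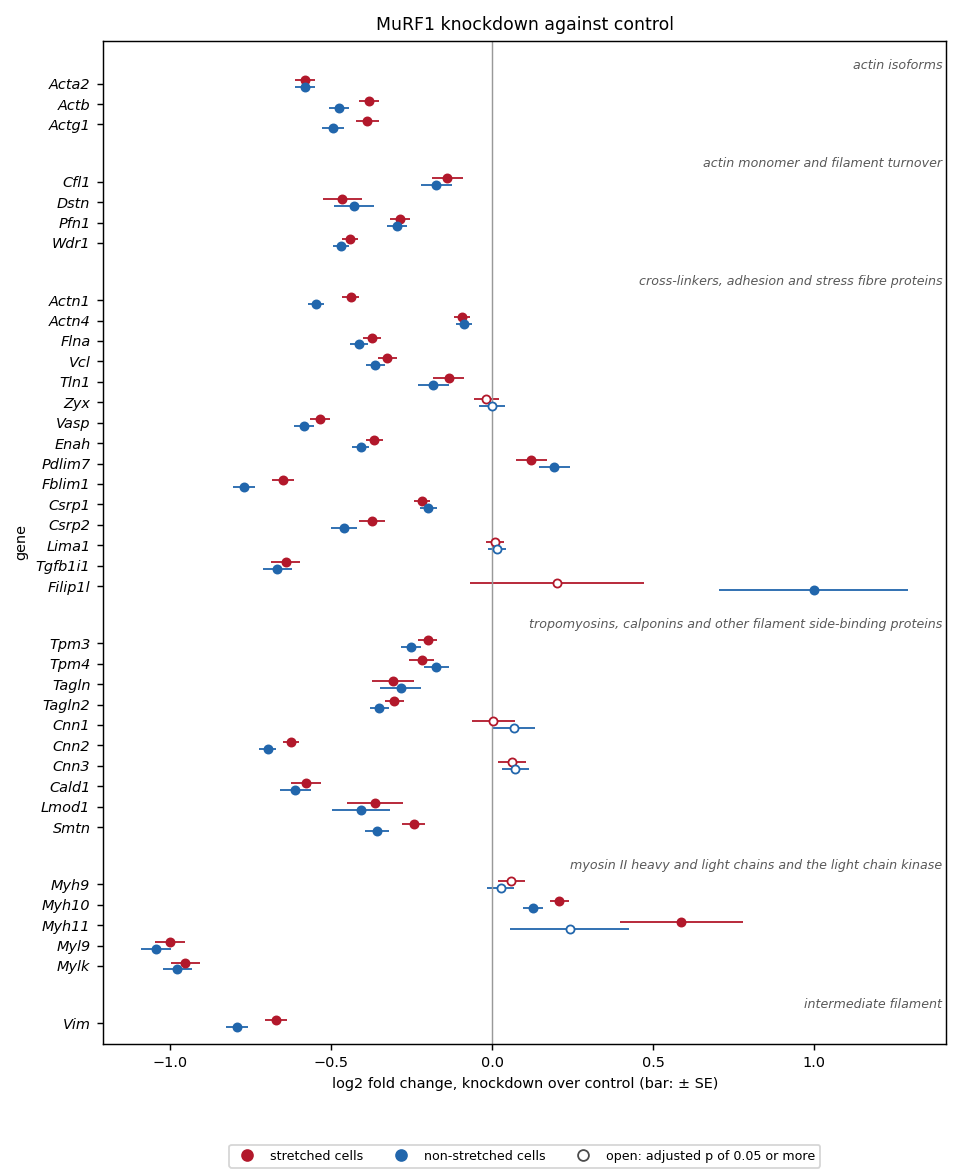
Log2 fold change of knockdown over control (x axis) for the 38 tested members (y axis, grouped by role) in stretched (red) and non-stretched cells (blue), with bars of ± SE and open points for adjusted p of 0.05 or more. Myl9 and Mylk lie furthest left, at -1.001 and -0.95 with stretch, while Myh10 and Pdlim7 lie to the right of 0 in both.

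Genes for SRF and its cofactors changed with the knockdown as well. Their part in the fall of the actin genes was not tested. Of 9 genes for SRF and its cofactors, 6 fell and 1 rose in each comparison. Among all tested genes, 26.9% fell and 25.1% rose with stretch, and 29.7% fell and 28% rose without. Myocd, the muscle cofactor myocardin, changed by -0.79 (adjusted p = 7.76e-17) with stretch and -0.83 (adjusted p = 1.96e-17) without, and Fhl2, a LIM cofactor, by -0.82 (adjusted p = 9.29e-15) and -0.85 (adjusted p = 4.72e-15). The MRTF genes, listed by their older names Mkl1 and Mkl2, changed by -0.39 and -0.40 with stretch and by -0.46 and -0.57 without. Srf itself changed by -0.28 (adjusted p = 5.91e-06) and -0.28 (adjusted p = 5.62e-06). The gene that rose was Scai, which represses MRTF activity, by 0.37 (adjusted p = 0.00309) and 0.38 (adjusted p = 0.00208).

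Other actin genes and muscle targets of SRF leaned lower too, where 26.9% of all tested genes fell with stretch and 29.7% without. Of 32 other actin regulators, 17 fell and 3 rose with stretch, and 19 fell and 2 rose without, led by the monomer-binding Cap1 at -0.58 and -0.63 and Cap2 at -0.53 and -0.54. The list's median log2 fold changes were -0.16 and -0.16. Of 14 tested muscle and sarcomere targets of SRF, 11 fell and 2 rose with stretch and 10 fell and 2 rose without, with medians of -0.43 and -0.51. Myl7, the atrial light chain, changed by -1.51 (adjusted p = 3.17e-15) with stretch.

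Of the cell type markers, those of cardiomyocytes and fibroblasts mostly fell with the knockdown. Among all tested genes, 26.9% fell and 25.1% rose with stretch, and 29.7% fell and 28% rose without. Of 10 tested atrial cardiomyocyte markers, 8 fell and 1 rose in each comparison, and the list summed to 1248 to 1287 CPM in stretched knockdown cells, against 2117 to 2561 CPM in stretched control cells. Without stretch the sums were 1126 to 1225 CPM in knockdown cells and 2229 to 2507 CPM in control cells. Of 7 tested fibroblast markers, 6 fell in each comparison, and the list of 10 summed to 557 to 586 CPM with stretch and 521 to 588 CPM without in knockdown cells, against 819 to 844 CPM and 824 to 861 CPM in control cells. Col1a1 changed by -1.12 with stretch and -1.40 without. Col1a2, Lum, Thy1 and Tcf21 had medians under 1 CPM in every group, and so did Dcn in both knockdown groups. The part of either list in the fall of the actin genes was not tested. The smooth muscle and pericyte list summed to 26.9 to 36.2 CPM in all groups. In each group 6 or 7 of its 9 markers had medians under 1 CPM, Rgs5 and Kcnmb1 among them. With the knockdown, 1 of its 7 tested markers fell and 1 rose in stretched cells, and 3 fell and 1 rose in non-stretched cells. Endothelial markers summed to 8.38 to 11.2 CPM and macrophage markers to 1.58 to 4.08 CPM, with Adgre1 near 0. In each comparison 1 of 4 tested endothelial markers fell, and of 3 tested macrophage markers 1 rose with stretch and 2 without.

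Stretch for 60 min raised part of the set. In knockdown cells 11 of 38 members rose and 0 fell with stretch, 28.9% of members, beside 5.32% of all tested genes that rose and 3.61% that fell (edgeR, adjusted p under 0.05). In control cells 7 rose and 0 fell, 18.4% of members, beside 2.55% and 3.39% of all tested genes. At an unadjusted p under 0.05, 18 members were higher and 0 lower in knockdown cells, beside 11.7% and 10.7% of all tested genes. In control cells 13 were higher and 1, Myh10, was lower, beside 8.85% and 12.7%. Among genes averaging at least 20 CPM, 10 of 34 members rose in knockdown cells, beside 6.78% of such genes, and 5 of 34 in control cells, beside 2.91%. None of the 34 fell, beside 3.22% of such genes in knockdown and 4.03% in control cells. Changes by stretch are log2 fold changes of stretched over non-stretched cells. Their medians over members were 0.08 in knockdown and 0.05 in control cells, against -0.01 for all tested genes in both. Without stretched control replicate 5, described below, the median was 0.08 in control cells too.

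The 2 stretch comparisons share no library. Csrp1, Lima1, Lmod1, Tgfb1i1, Vcl and Wdr1 rose in both, which is 54.5% of the genes called in knockdown cells and 85.7% of those called in control cells, and 29 of 38 members had the same sign. Calls in either direction took in 8.93% of all tested genes in knockdown cells and 5.95% in control cells. How often calls or signs were shared over all tested genes is not given here, so the sharing describes the members only. Every stretched library lay above every non-stretched library for 11 members in knockdown cells, beside 3.5% of all tested genes, and for 1 member in control cells, Lima1, beside 1.16%. The reverse held for 0 members in knockdown cells, beside 1.93%, and for 1 in control cells, Actn1, beside 2.03%. Without stretched control replicate 5, the stretched control libraries were all above the non-stretched ones for 7 members, Acta2, Cnn3, Lima1, Tagln, Tpm4, Vcl and Wdr1, beside 3.37% of all tested genes. They were then all below for 3, Actn1, Myh9 and Tln1, beside 6.26%. In knockdown cells Flna and Tagln had separate ranges without a call, and Actb and Fblim1 had a call with overlapping ranges.

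**Figure D3:**
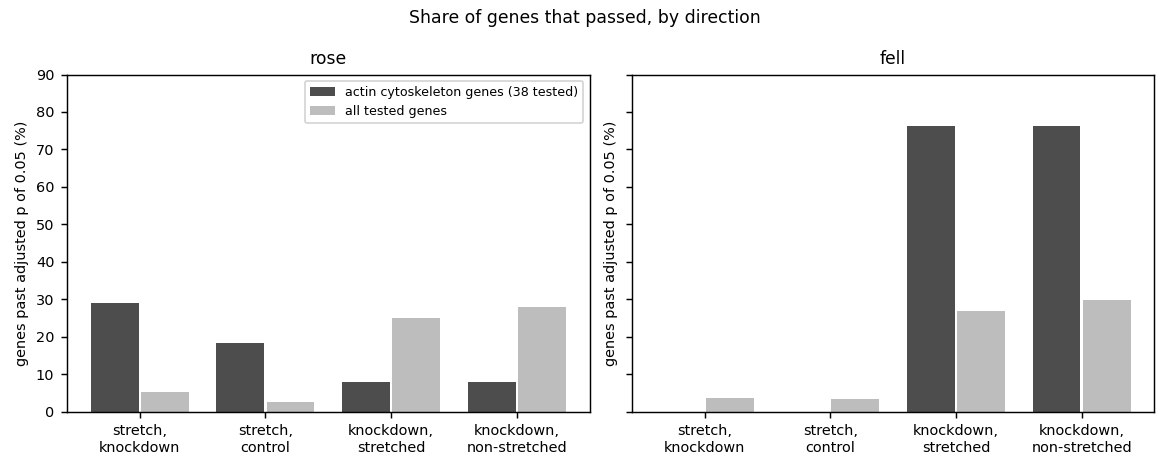
Share of the 38 tested members (dark) and of all 14411 tested genes (light) that rose (left) or fell (right) at adjusted p under 0.05, in percent (y axes), in each comparison (x axes). Members stand above all genes among rises with stretch, at 28.9% against 5.32% in knockdown cells, and among falls with knockdown, at 76.3% against 26.9% in stretched cells.

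Of the genes that rose in both, Lima1 had the smallest adjusted p in each kind of cell. Lima1 stood at 147 to 157 CPM (median 149) in stretched knockdown cells, against 122 to 131 CPM (median 128) in non-stretched knockdown cells. In control cells Lima1 stood at 137 to 153 CPM (median 150.4) with stretch and 123 to 129.9 CPM (median 125) without. Stretch changed Lima1 by 0.24 (SE 0.0272, adjusted p = 1.65e-06) in knockdown cells and by 0.24 (SE 0.0272, adjusted p = 2.93e-06) in control cells. Lima1, which bundles actin and slows its depolymerisation, was higher in every stretched library than in any non-stretched one of the same cells, while its knockdown comparisons gave 0.01 and 0.02. Tgfb1i1 stood at 23.2 to 26.2 CPM (median 25.1) in stretched knockdown cells, against 19.0 to 22.4 CPM (median 20.9) in non-stretched knockdown cells. In control cells Tgfb1i1 stood at 36.8 to 41.3 CPM (median 38.7) with stretch and 30.9 to 37.1 CPM (median 32.4) without. Stretch changed Tgfb1i1 by 0.27 (SE 0.0463, adjusted p = 0.000327) in knockdown cells and by 0.24 (SE 0.0446, adjusted p = 0.00134) in control cells. Its stretched and non-stretched ranges were apart in knockdown cells and overlapped in control cells. Wdr1 stood at 344 to 358 CPM (median 352) in stretched knockdown cells, against 308 to 318 CPM (median 314) in non-stretched knockdown cells. In control cells Wdr1 stood at 437 to 498 CPM (median 479) with stretch and 429 to 439 CPM (median 433) without. Stretch changed Wdr1 by 0.17 (SE 0.0254, adjusted p = 9.17e-05) in knockdown cells and by 0.14 (SE 0.0254, adjusted p = 0.00134) in control cells. The ranges of Wdr1 were apart in knockdown cells and overlapped in control cells. Vcl stood at 488 to 508 CPM (median 497) in stretched knockdown cells, against 419.9 to 469.8 CPM (median 448) in non-stretched knockdown cells. In control cells Vcl stood at 567 to 641 CPM (median 635) with stretch and 563 to 585 CPM (median 574) without. Stretch changed Vcl by 0.16 (SE 0.0289, adjusted p = 0.000637) in knockdown cells and by 0.12 (SE 0.0288, adjusted p = 0.0125) in control cells. Vinculin, which strengthens adhesions under load, likewise had ranges apart in knockdown cells and overlapping in control cells. For both Wdr1 and Vcl the overlap came from stretched control replicate 5: without it, Wdr1 stood at 474 to 498 CPM with stretch against 429 to 439 CPM without, and Vcl at 628 to 641 CPM against 563 to 585 CPM.

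The rises of Csrp1 and Lmod1 were less stable across alternatives. Csrp1 stood at 573 to 602 CPM (median 583) in stretched knockdown cells, against 533 to 557 CPM (median 546) in non-stretched knockdown cells. In control cells Csrp1 stood at 645 to 724 CPM (median 680.4) with stretch and 613 to 658 CPM (median 617) without. Stretch changed Csrp1 by 0.10 (SE 0.0261, adjusted p = 0.0169) in knockdown cells and by 0.12 (SE 0.0261, adjusted p = 0.00768) in control cells. In knockdown cells its ranges were apart. Lmod1 stood at 3.01 to 3.66 CPM (median 3.45) in stretched knockdown cells, against 2.25 to 2.92 CPM (median 2.71) in non-stretched knockdown cells. In control cells Lmod1 stood at 3.75 to 5.22 CPM (median 4.44) with stretch and 2.90 to 3.86 CPM (median 3.64) without. Stretch changed Lmod1 by 0.37 (SE 0.0902, adjusted p = 0.0102) in knockdown cells and by 0.32 (SE 0.0873, adjusted p = 0.0264) in control cells. Lmod1 has 89 to 242 counts per library, and its ranges were apart in knockdown cells and overlapped in control cells. In control cells both lost their call when only the 2 groups compared were fitted, at adjusted p = 0.0525 for Csrp1 and 0.0872 for Lmod1, which also lost it on leaving out any 1 of 4 control libraries (adjusted p of 0.0607 to 0.0845). Filip1l, called in control cells at 0.97 (SE 0.298, adjusted p = 0.04999) with 0.389 to 1.47 CPM (median 0.569) in stretched and 0.273 to 0.444 CPM (median 0.355) in non-stretched control cells, lost its call under 21 of the 32 alternatives that tested it, with adjusted p of 0.0511 to 0.213 in these.

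Called in knockdown cells and not in control cells were 5 genes, among them both cytoplasmic actins. Actg1 stood at 2112 to 2242 CPM (median 2167) in stretched knockdown cells, against 1763 to 2049 CPM (median 1854) in non-stretched knockdown cells. In control cells Actg1 stood at 2679 to 2951 CPM (median 2866) with stretch and 2473 to 2757 CPM (median 2652) without. Stretch changed Actg1 by 0.21 (SE 0.0344, adjusted p = 0.000158) in knockdown cells and by 0.11 (SE 0.0344, adjusted p = 0.0646) in control cells. Actg1 was higher in every stretched knockdown library than in any non-stretched one, and its control ranges overlapped. Actb stood at 1491 to 1617 CPM (median 1544) in stretched knockdown cells, against 1334 to 1498 CPM (median 1401) in non-stretched knockdown cells. In control cells Actb stood at 1927 to 2111 CPM (median 2020.3) with stretch and 1910.1 to 2059.5 CPM (median 1942) without. Stretch changed Actb by 0.14 (SE 0.0308, adjusted p = 0.00507) in knockdown cells and by 0.04 (SE 0.0308, adjusted p = 0.461) in control cells. Its ranges overlapped in both kinds of cell. Cnn2 stood at 171 to 182 CPM (median 179.5) in stretched knockdown cells, against 157 to 167 CPM (median 159) in non-stretched knockdown cells. In control cells Cnn2 stood at 258 to 284 CPM (median 277) with stretch and 254 to 270.1 CPM (median 258) without. Stretch changed Cnn2 by 0.15 (SE 0.0258, adjusted p = 0.000321) in knockdown cells and by 0.08 (SE 0.0256, adjusted p = 0.0708) in control cells. Cnn2 ranges were apart in knockdown cells and overlapped in control cells. Fblim1 changed by 0.13 (adjusted p = 0.0171) in knockdown cells and 0.01 (adjusted p = 0.918) in control cells, and its ranges, given above, overlapped in both. Vim changed by 0.11 (adjusted p = 0.0365) and -0.01 (adjusted p = 0.874). Its ranges were apart in knockdown cells, yet there it lost its call with no filter (adjusted p = 0.0597) and on leaving out any 1 of 10 libraries (adjusted p of 0.0509 to 0.0848). Without stretched control replicate 5, Actg1 and Cnn2 were called in control cells as well. Acta2 had the same value in both with all libraries, 0.09 (adjusted p = 0.0687) and 0.09 (adjusted p = 0.0848).

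Stretched control replicate 5 bore on these counts. Without it 16 members rose and 0 fell in control cells, where 5.68% of all tested genes rose, and 16 rose in knockdown cells, where 7.48% of all tested genes rose. The 2 lists then shared 12 genes, 75% of each, again without a value for all tested genes. The genes gained in control cells were Acta2, Actg1, Cfl1, Cnn2, Cnn3, Dstn, Myl9, Tagln, Tpm4 and Zyx, and Filip1l was lost. Tagln, the actin-binding protein transgelin, then changed by 0.25 (SE 0.0423, adjusted p = 0.000240) in control cells, beside 0.19 (adjusted p = 0.0804) with all libraries, and Dstn by 0.17 (SE 0.0433, adjusted p = 0.0102), beside 0.11 (adjusted p = 0.324). Leaving out non-stretched knockdown replicate 4 gave 12 in control cells, and leaving out stretched knockdown replicate 1 gave 11. With the knockdown, leaving out stretched control replicate 5 gave 28 that fell and 4 that rose in stretched cells, beside 29.3% and 26.1% of all tested genes. Myh9 was gained among the rises and Tln1 was lost.

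**Figure D4:**
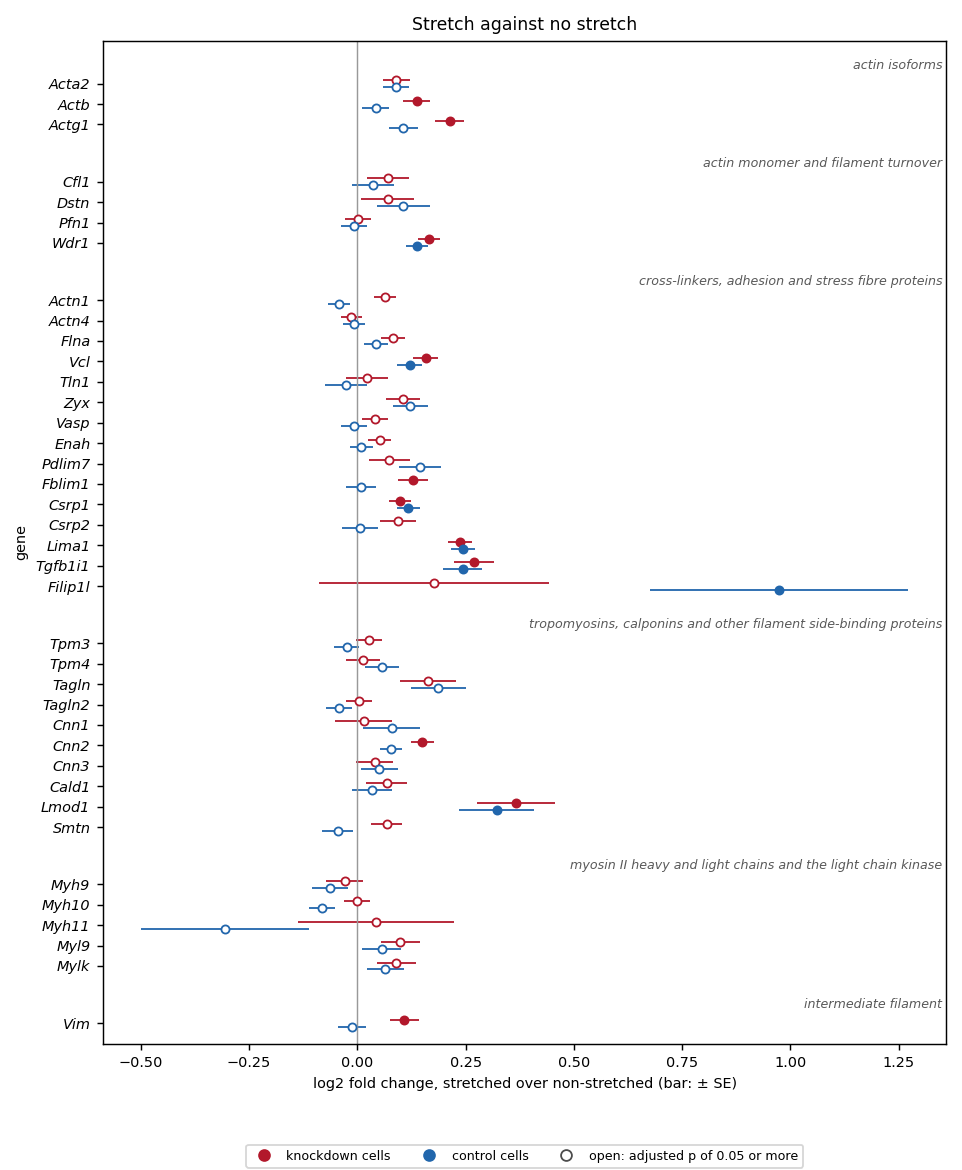
Log2 fold change of stretched over non-stretched cells (x axis) for the 38 tested members (y axis, grouped by role) in knockdown (red) and control cells (blue), with bars of ± SE and open points for adjusted p of 0.05 or more. Most points lie right of 0, and filled points in both colours are at 0.24 and 0.24 for Lima1 and 0.27 and 0.24 for Tgfb1i1.

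The difference between the 2 stretch responses, the interaction of stretch and knockdown, passed for 0 of 38 members by edgeR, DESeq2 and limma-voom. Of all tested genes, 0.0208% passed by edgeR and 0.0208% by limma-voom. By DESeq2, 0.715% of all tested genes passed with the larger value in knockdown cells and 0.132% with the smaller. At an unadjusted p under 0.05 by edgeR, the interaction reached 6 members and 9.4% of all tested genes. All 6 had the larger value in knockdown cells. These were Actn1 (0.11, adjusted p = 0.298), Vim (0.12), Fblim1 (0.12), Actg1 (0.11), Smtn (0.11) and Actb (0.09), named after their values were seen. A response called in knockdown cells and missed in control cells is thus not shown to differ between them. For Lima1 the interaction was -0.01 (SE 0.0384, adjusted p = 0.982) and for Tgfb1i1 0.03 (SE 0.0642, adjusted p = 0.955).

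Srf itself rose with stretch. It stood at 149.7 to 163 CPM (median 156) in stretched knockdown cells, against 109 to 130.2 CPM (median 119) in non-stretched knockdown cells. In control cells it stood at 182 to 206 CPM (median 187) with stretch and 136 to 166 CPM (median 143) without. Of the 9 genes for SRF and cofactors, 3 rose in knockdown cells and 2 in control cells, with Srf at 0.37 and 0.37 and Fhl2 at 0.38 and 0.35. None of 32 other actin regulators passed in either kind of cell. Among all tested genes, 5.32% rose and 3.61% fell in knockdown cells, and 2.55% rose and 3.39% fell in control cells. Whether 0 of 32 differs from these shares was not tested. Without stretched control replicate 5, 2 of the 32 regulators rose in control cells, and DESeq2 called 1 in knockdown cells.

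SRF targets of other kinds also held responders, where 5.32% of all tested genes rose in knockdown cells and 2.55% in control cells. Of 10 early targets that SRF shares with ternary complex factors, 4 rose in knockdown cells and 1 in control cells. Mcl1, an anti-apoptotic gene, rose in both, by 0.20 (adjusted p = 6.55e-05) and 0.17 (adjusted p = 0.00102). Fosb, an AP-1 subunit, stood at 20.8 to 38.5 CPM (median 27.6) in stretched knockdown cells, against 5.41 to 9.45 CPM (median 6.93) in non-stretched knockdown cells, with no overlap. Its interaction was 1.87 (SE 0.284, adjusted p = 0.0181). Of 14 tested muscle targets, 3 rose in knockdown and 2 in control cells, with Actc1, the cardiac alpha actin, at 0.73 (adjusted p = 2.15e-07) and 0.48 (adjusted p = 0.000117). Without stretched control replicate 5, 6 of the 14 rose in knockdown cells. Leaving out stretched knockdown replicate 5, or non-stretched knockdown replicate 1, 3 or 5, left 1.

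Some cell type markers were called with stretch. Among all tested genes, 5.32% rose and 3.61% fell in knockdown cells, and 2.55% rose and 3.39% fell in control cells. Of the 10 tested cardiomyocyte markers 3 rose in knockdown cells and 1 in control cells. Of the 7 tested fibroblast markers 0 and 1 were called, a fall of Col1a1 in control cells. The smooth muscle list had 1 rise in knockdown cells, the endothelial list none in either, and the macrophage list 1 rise in knockdown and 2 in control cells. Medians were 0.58 and 0.66 over the 3 macrophage markers, and 0.25 and 0.08 over the 7 smooth muscle markers. Their part in the stretch response of the actin genes was not tested.

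Members with a CArG box in the window shown above had stretch values of 0.10 to 0.24 in knockdown cells and 0.06 to 0.97 in control cells. Of the 6, Actg1, Cnn2, Lima1 and Vcl rose with stretch in knockdown cells, and Filip1l, Lima1 and Vcl in control cells. The 6 had median log2 stretch responses of 0.17 in knockdown and 0.11 in control cells, beside 0.07 and 0.03 for the 27 members without a match, of which 5 and 3 rose. With the knockdown, 4 of the 6 fell in each comparison, with medians of -0.36 with stretch and -0.43 without, beside 21 of the 27, with medians of -0.29 and -0.35. Lima1 and Myl9 show the spread among box-bearing genes: knockdown changed Myl9 by -1.04 and Lima1 by 0.02 without stretch, while stretch changed Lima1 by 0.24 and Myl9 by 0.10 in knockdown cells. With 6 genes these medians are a description.

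**Figure D5:**
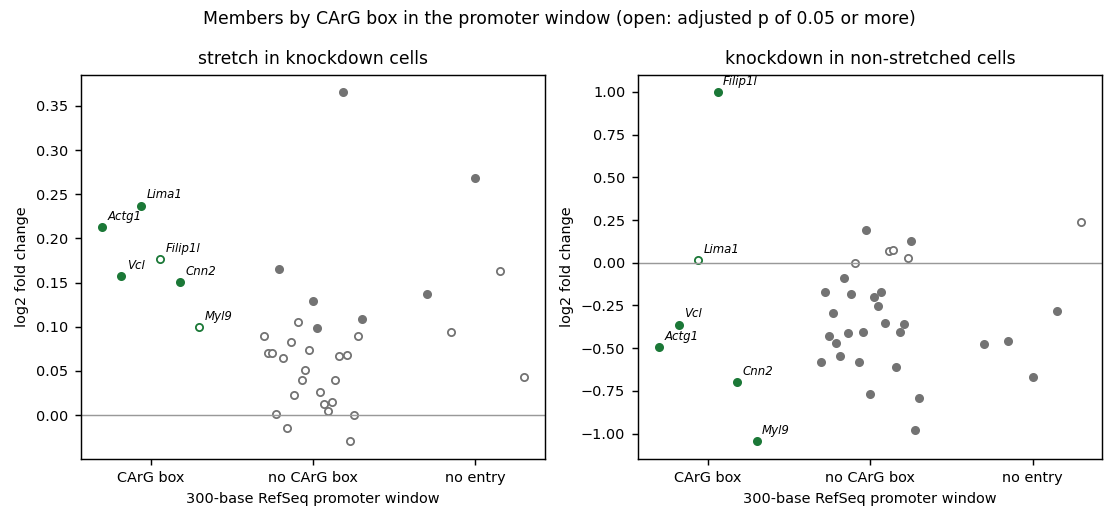
Log2 fold change (y axes) of the 38 tested members by CArG box in the 300-base promoter window (x axes), for stretch in knockdown cells (left) and for knockdown against control in non-stretched cells (right). Each point is a gene, open where adjusted p was 0.05 or more. The 6 genes with a box lie above 0 on the left, where their median is 0.17, and between -1.04 and 1.00 on the right.

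Replicates of a group lay close together for the median member, although stretched control replicate 5 stood apart as described above. The median coefficient of variation of the tested members was 2.46% in stretched knockdown cells and 4.14% in non-stretched knockdown cells. It was 5.09% in stretched control cells and 2.69% in non-stretched control cells. The highest, in the same order, were 26.2%, 37.6%, 56.4% and 19.5%, each for the low-count Filip1l. The calls on knockdown stood under nearly all alternatives: 29 of 32 with stretch, all but Cfl1, Pdlim7 and Tln1, and 31 of 32 without, all but Actn4, were kept under every alternative run. Of the calls on stretch, 8 of 11 were kept in knockdown cells, all but Csrp1, Fblim1 and Vim. In control cells 4 of 7 were kept, Lima1, Tgfb1i1, Vcl and Wdr1.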

How the data were processed

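The deposited table holds estimated counts per protein-coding gene, of which 36.6% were whole within 1e-09. Per the submitters' processing notes, kallisto 0.44.0, DESeq2 1.18.1, R 3.4.4 and GRCm38.p6 were used, with roles not stated. For the annotation release, nothing is given in the sources used here. The authors also deposited a normalized signal, which served as 1 of the alternative scalings.

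After rounding, the estimated counts went into edgeR 4.0.16 under R 4.3.3. TMM scaling was used, genes were kept by filterByExpr (minimum count 10, minimum total 15), and the robust quasi-likelihood fit took all 24 libraries with a coefficient for each group, leaving 20 residual degrees of freedom. Tests were two-sided, with Benjamini-Hochberg adjustment over 14411 genes and a threshold of 0.05. The script was tested on simulated data. The standard error is the log2 fold change divided by the square root of F. Alternatives were DESeq2 1.42.0 (size factors and test), limma 3.58.1 (voom), no filter, a minimum count of 50, only the groups compared, the authors' factors, a block for replicate number or code letter, and leaving out each library.

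Full values are given for the 4 actin isoforms, for up to 12 called members per comparison with the largest absolute log2 fold change and an average log2 CPM of at least 1, and for Trim63. Members, roles, surrounding gene lists and marker lists were chosen with earlier results of these data known. No pair of replicates was identical or near sampling noise (lowest chi-square per gene 2.85 over 60 pairs). Strand use in counting is not stated. RefSeq promoters and GENCODE vM21 (positions, longest transcripts, 31-base words) supplied sequence annotation. A further list of surrounding genes is not reported here.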

Additional observations from a re-analysis of the deposited data

Results flagged for a closer look

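In each set of 6 replicate values of a tested member, the highest and the lowest library were compared with the nearest other library. A value is listed where that gap, divided by the range of the group, exceeded Dixon's 95% critical value for 6 values. Of 152 sets, 31 gave such a value, where chance alone gives about 1 in 20, and genes of 1 library are not independent of each other.

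Stretched control replicate 5 accounted for 13 of the 31 values. It was the lowest of its 6 for Acta2 at 2200.3 CPM (others 2423 to 2519), Cfl1 at 745 CPM (others 955 to 1015) and Dstn at 563 CPM (others 728 to 773). The same held for Vcl at 567 CPM (others 628 to 641), Csrp2 at 47.9 CPM (others 53.0 to 56.0) and Lima1 at 137 CPM (others 148 to 153). So it was for Tpm4 at 637 CPM (others 739.5 to 772), Tagln2 at 319 CPM (others 358 to 373) and Cnn3 at 251 CPM (others 306 to 325). The same held for Myl9 at 331 CPM (others 408 to 438) and Vim at 1130.5 CPM (others 1302 to 1357). It was also the highest of its 6 for Tln1 at 699 CPM (others 541 to 570.0) and Myh9 at 1088 CPM (others 926 to 956).

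Non-stretched knockdown replicate 4 accounted for 7. It was the lowest of its 6 for Flna at 1406 CPM (others 1567 to 1636), Tln1 at 452 CPM (others 523 to 547) and Smtn at 76.7 CPM (others 88.2 to 91.6). The same held for Myh10 at 248 CPM (others 276 to 291). It was also the highest of its 6 for Dstn at 579.8 CPM (others 479 to 497), Tpm4 at 693 CPM (others 603 to 630.1) and Cnn3 at 341 CPM (others 300.3 to 313).

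The remaining 11 values came from 9 libraries. Non-stretched control replicate 1 was highest for Actn1 at 436 CPM (others 423 to 428), highest for Tgfb1i1 at 37.1 CPM (others 30.9 to 33.1) and highest for Cnn2 at 270.1 CPM (others 254 to 260.1). Stretched control replicate 2 was lowest for Actn4 at 730.2 CPM (others 773 to 796). Stretched knockdown replicate 3 was highest for Flna at 1713 CPM (others 1640.4 to 1664). Stretched control replicate 6 was lowest for Zyx at 223 CPM (others 243 to 249). Stretched knockdown replicate 4 was highest for Lima1 at 157 CPM (others 147 to 149.8). Non-stretched knockdown replicate 3 was highest for Filip1l at 1.22 CPM (others 0.416 to 0.702). Stretched knockdown replicate 1 was lowest for Tagln2 at 279 CPM (others 291 to 295). Non-stretched control replicate 4 was highest for Tagln2 at 384 CPM (others 365 to 369). Non-stretched control replicate 3 was lowest for Myh11 at 0.496 CPM (others 0.711 to 0.821).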

How the results depend on the processing

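With a block for the replicate number, 13 members passed for stretch in knockdown cells, 8 for stretch in control cells, 32 for each knockdown comparison and 0 for the interaction. Same-numbered libraries did not deviate together (36 pairs, r between -0.06 and 0.15, 3 over 0.1, 8 highest with their own number), so the numbers were not taken as pairs.

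The count for stretch in control cells, 7 with all choices as reported, was 11 with the minimum count raised to 50, 12 with DESeq2's test and 4 when the fit held the 2 stretch groups of those cells alone. Leaving out 1 library at a time gave 9 to 16 for stretch in knockdown cells, 5 to 16 for stretch in control cells, 31 to 32 for knockdown in stretched cells, 32 to 33 for knockdown in non-stretched cells and 0 for the interaction. The 16 came in both stretch comparisons from leaving out stretched control replicate 5. For stretch in control cells, 12 came from leaving out non-stretched knockdown replicate 4 and 11 from leaving out stretched knockdown replicate 1. The cause was not tested. Under the other scalings, filters and tools run, every member count stayed within 1.5 times its value as reported.

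Across 33 alternatives, 3027 single-member values were recomputed: 2955 kept direction and side of the threshold, 52 fell short of it, 20 newly passed it and 0 changed direction while called. They belong to 92 results: the calls, the tested actin isoforms, and interaction values with unadjusted p under 0.05. Other uncalled values were not in this tally, so members that newly passed among them, such as Tagln and Dstn above, are not counted. The list of 10 early SRF targets changed its knockdown count under several alternatives, between 1 and 4 in non-stretched cells beside 2, and up to 5 in stretched cells beside 3. Depth limits Actg2, Filip1l and Myh11, at up to 52 counts per library.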
